A study of Mus musculus with 2 samples.

Results

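Neutrophils that carried mRNA for secondary (specific) granule proteins were examined in single-cell libraries of mouse spleen, and 187 such cells were found among 16152 cells of both libraries. They were chosen by UMI counts (unique molecular identifiers, which count captured RNA molecules): 20 or more over Camp, Ngp and Ltf, 20 or more over S100a8 and S100a9, and under 10 over Mpo, Elane, Prtn3 and Ctsg. In addition each cell had at least 1000 UMIs, at least 300 genes, at most 10% mitochondrial UMIs and under 20% haemoglobin UMIs. Because these counts selected the cells, the levels of those 9 genes are given as description only.

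The spleens came from C57BL/6 mice with chronic anaemia, which had been produced over 1 month either by injecting PHZ every 3 days or by withdrawing blood at the same interval. PHZ is taken here as phenylhydrazine, which lyses red cells. Live spleen cells were profiled by a droplet method that reads the 3 prime ends of transcripts, with 1 library for each treatment. The age and number of mice behind each library were not given in the sources used here, and untreated mice were not analysed here. Since each treatment has 1 library, treatments were not tested against each other, and effects of treatment, mouse and library cannot be told apart. Intervals are at 95% and cover only the error of counting.

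A neutrophil makes its granules in sequence. Promyelocytes fill primary granules with myeloperoxidase and serine proteases; myelocytes and metamyelocytes, while leaving the cell cycle, fill secondary granules with lactoferrin, cathelicidin and lipocalin; later cells add gelatinase granules, and the circulating cell gains chemokine and colony-stimulating factor receptors. Cathelicidin is encoded by Camp, neutrophilic granule protein by Ngp, lactoferrin by Ltf and lipocalin by Lcn2, while S100a8 and S100a9 encode the subunits of calprotectin. This sequence is usually followed in bone marrow, and in mice the spleen can also be a site of granulocyte production. The C/EBP transcription factors, C/EBP epsilon (Cebpe) in particular, are known to drive the secondary granule genes.

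The 250 bases upstream of the start are shown for Camp, Ngp and Ltf, whose mRNAs define the cells, and for Lcn2, a secondary granule gene outside the rule. Sequences were taken from RefSeq on build GRCm38.p6 and run 5 prime to 3 prime on the coding strand, with any match to the C/EBP core TTGCNNAA, searched on both strands, in capitals.
Camp: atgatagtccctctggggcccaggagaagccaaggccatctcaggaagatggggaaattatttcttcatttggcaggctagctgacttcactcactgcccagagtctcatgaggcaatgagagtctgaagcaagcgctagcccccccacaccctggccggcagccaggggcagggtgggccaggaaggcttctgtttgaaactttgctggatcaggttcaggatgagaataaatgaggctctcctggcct
Ngp: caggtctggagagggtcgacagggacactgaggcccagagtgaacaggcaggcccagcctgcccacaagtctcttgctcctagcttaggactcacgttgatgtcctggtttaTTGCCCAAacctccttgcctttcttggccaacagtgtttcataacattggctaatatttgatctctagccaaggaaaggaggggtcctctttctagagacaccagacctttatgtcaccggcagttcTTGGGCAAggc
Ltf: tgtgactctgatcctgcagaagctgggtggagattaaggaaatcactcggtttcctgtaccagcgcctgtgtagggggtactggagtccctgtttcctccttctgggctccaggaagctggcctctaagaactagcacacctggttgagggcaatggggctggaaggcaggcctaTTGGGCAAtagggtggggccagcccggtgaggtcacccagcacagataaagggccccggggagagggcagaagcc
Lcn2: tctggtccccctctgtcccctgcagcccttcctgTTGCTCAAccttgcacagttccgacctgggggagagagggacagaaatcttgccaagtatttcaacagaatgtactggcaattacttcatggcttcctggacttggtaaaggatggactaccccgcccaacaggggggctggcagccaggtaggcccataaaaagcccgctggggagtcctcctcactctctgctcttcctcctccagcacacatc
The windows lie at chr9:109849457-109849706 on the minus strand for Camp, chr9:110419558-110419807 on the plus strand for Ngp, chr9:111019042-111019291 on the plus strand for Ltf and chr2:32387740-32387989 on the minus strand for Lcn2. The Ngp window held 2 matches, starting at -138 and -11 relative to the start site, the Ltf window held 1 at -75, the Lcn2 window 1 at -216 and the Camp window 0. Of 20 listed secondary granule genes 18 had a window in the table, and 6 of their 19 windows (31.6%) held a match, beside 9.56% of 32851 windows of that length over all genes. The excess was not particular to the C/EBP core. The ETS (PU.1) core GAGGAA was found in 10 of the 19 windows (52.6%), beside 23.3% of all windows. The TATA box TATAAA was found in 1 of 19 (5.26%), beside 12.4%. A match to any of these letters describes the sequence and is no evidence of binding.

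PHZ spleen held 139 immature neutrophils among 6445 cells (2.16%, 1.82 to 2.54), and bleeding spleen held 48 among 9707 (0.494%, 0.365 to 0.655). The ratio of these shares was 4.36 (3.12 to 6.19). Among cells with under 20% haemoglobin UMIs they were 4.28% (3.61 to 5.03) and 0.708% (0.523 to 0.938), a ratio of 6.04 (4.32 to 8.58). The neutrophil groups before and after them were also a larger share of the PHZ library over the same denominator. Mature neutrophils, with 20 or more UMIs over S100a8 and S100a9, 3 or more over Csf3r, Cxcr2 and Retnlg, under 20 over Camp, Ngp and Ltf and under 3 over Csf1r, Ccr2 and F13a1, numbered 120 and 63, a ratio of 3.97 (2.91 to 5.48). Primary granule precursors, with 20 or more UMIs over Mpo, Elane, Prtn3 and Ctsg, numbered 30 and 12, a ratio of 5.22 (2.59 to 11.2). Within these 3 groups together the immature cells made up 48.1% (42.2 to 54.0) in PHZ and 39.0% (30.4 to 48.2) in bleeding, a ratio of 1.23 with an interval (0.882 to 1.75) that spans 1.

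The PHZ cells ran closer to the threshold than those of bleeding. The lowest Camp, Ngp and Ltf counts inside the rule were 23 and 25 UMIs in PHZ and 49 and 67 in bleeding, and the highest outside it were 16 and 14 in PHZ and 2 and 1 in bleeding, with 6 and 0 cells outside at 10 to 19 UMIs. With a limit of 10 in place of 20 UMIs 145 and 48 cells were selected, and with 50 UMIs 130 and 47. Cells with 10 or more primary granule UMIs, which the rule leaves out, numbered 21 and 8 among those that passed its other limits, and 12 and 5 failed by haemoglobin alone. The median immature neutrophil had 14160 UMIs and 2826 genes in PHZ (3171 to 168861 UMIs) and 17066.5 UMIs and 3059.5 genes in bleeding (3874 to 47292 UMIs). Those medians lay between the mature neutrophils (4315 and 4103 UMIs) and the primary granule precursors (48381.5 and 42890.5 UMIs).

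Some of these barcodes also carried mRNA of another cell type. A barcode was called mixed if it had 10 or more UMIs of 5 B cell markers (among them Cd79a, Cd79b, Ms4a1 and Ebf1), 5 T cell markers (Cd3d, Cd3e, Cd3g, Trac and Lat) or 5 erythroid markers (among them Alas2, Slc4a1, Car2 and Klf1). In PHZ 2 of 139 were mixed (1.44%, 0.175 to 5.10), both erythroid, and 1 of these was the cell of 168861 UMIs and 9223 genes. In bleeding 9 of 48 were mixed (18.8%, 8.95 to 32.6): 4 with B cell, 4 with T cell and 1 with erythroid markers. Without mixed barcodes 137 and 39 cells were left, and the ratio of their shares among cells under 20% haemoglobin was 7.33 (5.10 to 10.7). A doublet caller (Scrublet) marked 3 of the 139 and 6 of the 48. The libraries shared 16 cell barcodes, and 0 immature neutrophils were among them.

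The label was checked against marker genes outside the rule. Lcn2 was detected in 139 of 139 and 48 of 48 cells, at 16012 CPM in PHZ and 15636 CPM in bleeding, where CPM is UMIs summed over the cells per 1000000 of their total without haemoglobin genes. Single cells ranged from 643 to 30023 CPM of Lcn2 in PHZ (median 16181) and from 3366 to 26694 CPM in bleeding (median 16176), so the libraries overlapped over nearly the whole range. Summed levels of other lineages' markers were lower. All 5 basophil and mast cell markers were at 0 in both libraries, and 3 of 4 platelet, 4 of 5 (PHZ) and 5 of 5 (bleeding) dendritic cell and 3 of 5 NK cell markers were at 0, with summed levels of at most 19.3 CPM for these 3 lists. The plasma cell list stood at 85.4 and 100.1 CPM, the eosinophil list at 60 and 55.7 CPM and the red pulp macrophage list at 21.7 and 21.6 CPM, with at most 9 UMIs of any of these lists in a cell. B cell markers were at 10.8 and 367 CPM, T cell markers at 15.4 and 105 CPM and erythroid markers at 294 and 45.5 CPM. Without mixed barcodes these were at 11.5 and 23.6, 17.0 and 23.6, and 70.6 and 17.3 CPM. The precursor list, held low by the rule, stood at 88.3 and 83.0 CPM. The mature neutrophil markers (Cxcr2, Retnlg, Il1b, Csf3r and Mmp9) were at 5879 and 3713 CPM, with 10 or more UMIs in 111 of 139 and 30 of 48 cells. The monocyte list stood at 981 and 927 CPM in sum and Ly6c2, which immature neutrophils also carry, gave 974 and 917 CPM of it. Ccr2 was at 0, and F13a1 and Ms4a6c had 1 UMI each in PHZ and 2 each in bleeding.

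Free RNA from broken cells reaches other droplets, so the share of cells outside the neutrophil groups with a UMI gives an approximate background. Those cells are not all unrelated, since 2 and 1 failed the rule only by 10 to 19 primary granule UMIs. Among them 33 and 6 had 10 or more UMIs over Camp, Ngp, Ltf, Lcn2 and S100a8, with up to 4772 and 5192 in a cell. Camp was detected in 98.6% (94.9 to 99.8) of immature neutrophils in PHZ and 100% (92.6 to 100) in bleeding, beside 13% and 4.49% of all cells outside the neutrophil groups. Ltf was detected in 93.5% and 97.9%, beside 3.89% and 1.08%. Camp and Ltf helped to choose the immature neutrophils, so their high detection there follows largely from the rule. Only the shares in the other cells bear on the background, and they count the related cells too. The cells outside the neutrophil groups had medians of 6729 and 6757 UMIs, which is fewer than the immature neutrophils had. Lcn2 was detected in 7.0% and 1.73% of them. It was also detected in 74.2% and 71.4% of mature neutrophils and in 80% and 75% of precursors. Detection of Lcn2 alone therefore does not set the immature cells apart from these groups.

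The 9 rule genes took 34.4% and 34.2% of all UMIs without haemoglobin in the immature neutrophils, beside 14% and 9.33% in mature neutrophils, 13.5% and 11.7% in precursors and 0.0506% and 0.0211% in other cells. S100a8 and S100a9 alone took 26.8% and 25.6%, and Camp, Ngp and Ltf 7.62% and 8.57%. Across cells the Camp, Ngp and Ltf share ran from 0.228% to 12.5% in PHZ (median 8.34%) and from 0.705% to 13.3% in bleeding (median 9.05%). These few cells also held most of the spleen's mRNA for several granule and surface genes. Although they contributed 4.39% and 1.23% of the non-haemoglobin UMIs of all cells, they held 79.6% and 80.2% of the Lcn2 UMIs and 85.1% and 84.7% of those of Ly6g, a surface protein used to sort neutrophils. For Ltf the values were 86.1% and 84.6%, but Ltf helped to choose the cells and is given as description only. Cd177, a surface glycoprotein of neutrophils, stood at 80.8% and 77.9%, and Mmp8, neutrophil collagenase, at 74.4% and 76.6%. Cebpe was shared more widely, with 61.8% and 68.9% in the immature cells and 29.3% and 21.6% in precursors.

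**Figure D1:**
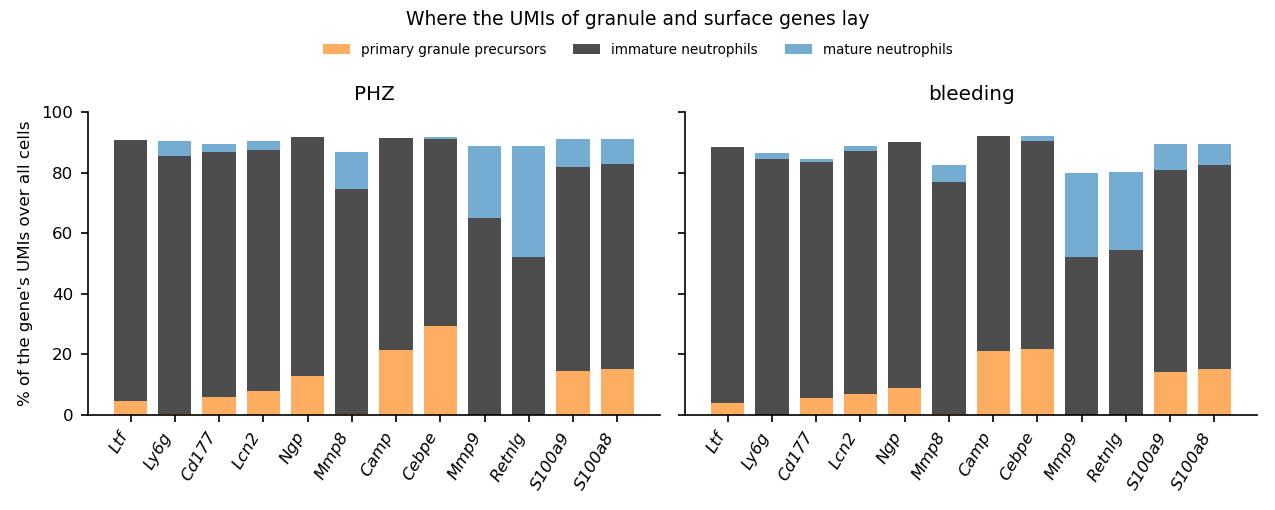
Share of each gene's UMIs over all cells of a library (y axis, percent) that lay in primary granule precursors (orange), immature neutrophils (dark grey) and mature neutrophils (blue), for the PHZ and the bleeding library. Immature neutrophils held 79.6% and 80.2% of the UMIs of Lcn2, which lies outside the rule. Mature neutrophils, which Retnlg helped to select, held 36.7% and 25.8% of those of Retnlg. Camp, Ngp, Ltf, S100a8 and S100a9 chose the immature neutrophils and are shown as description only.

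The immature neutrophils fell into cells in division and cells that were not. The sum over 12 genes of S, G2 and M phase (Mki67, Top2a, Cdk1, Birc5, Ube2c, Nusap1, Tpx2, Cenpf, Rrm2, Ccnb2, Cdca8, Pclaf) reached 10 UMIs in 32 of the 139 cells from PHZ (23.0%, 16.3 to 30.9). In bleeding it did so in 13 of 48 (27.1%, 15.3 to 41.8). The ratio of these shares was 0.850 (0.434 to 1.76), and without mixed barcodes it was 0.949 (0.439 to 2.27) from 30 of 137 and 9 of 39. Few cells lay near the limit: the lowest cycling cells had 12 and 11 UMIs and the highest others 7 and 2, and 53 and 26 cells had 0. When each cell was thinned to 3000 UMIs, 2 or more UMIs of these genes were found in 23.0% and 27.1% of the cells. Any UMI of them was found in 61.9% and 45.8% of cells before thinning and in 36.0% and 31.2% after it. Precursors were nearly all cycling by the same limit (28 of 30 and 12 of 12), and mature neutrophils nearly all not (1 of 120 and 0 of 63, the latter with an interval of 0 to 5.69%).

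**Figure D2:**
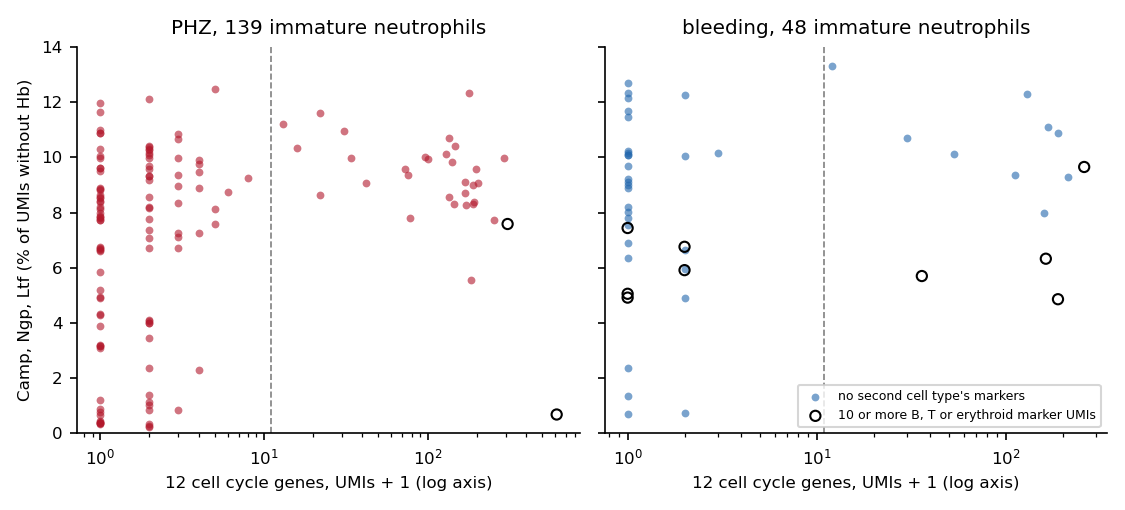
Each point is an immature neutrophil, placed by its UMIs over 12 cell cycle genes plus 1 (x axis, log scale) and by the share of its non-haemoglobin UMIs from Camp, Ngp and Ltf (y axis, percent), for PHZ (left) and bleeding (right). Black circles are mixed barcodes, and the dashed line marks 10 UMIs, beyond which 32 and 13 cells lie.

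Cycling cells were compared with the others within each library, and a gene was counted when its ratio was 2 or more, or 0.5 or less, in both. Of 2268 genes measured at 50 or more UMIs, 144 (6.35%) were higher and 138 (6.08%) lower in the cycling cells. The cycle genes themselves were left out of these counts, but the rule genes were not. Without mixed barcodes these counts were 84 and 115. Of the 12 that led, Hist1h2ap, Hist1h2ab, Hist1h2ae, Hist1h3c and Hist1h1b encode histones, Stmn1 and Tuba1b a microtubule regulator and a tubulin, Prc1, Knl1 and Kif15 spindle and kinetochore proteins, H2afx a histone variant, and the last was Efcab11. Hist1h2ap was at 1470 CPM in cycling and 30.4 CPM in other PHZ cells, a ratio of 48.3 (35.6 to 67.3), and at 1768 and 21.5 CPM in bleeding, a ratio of 82.1 (45.6 to 165). In the other direction Retnlg, Mmp8, Stfa2l1, Mmp9, S100a6, Hacd4, Slfn1, Scrg1, Cxcr2, Ly6g, Prr13 and Mxd1 led. Retnlg, a resistin-like secreted protein, stood at 72.5 CPM in cycling and 7446 CPM in other PHZ cells and at 46.1 and 4487 CPM in bleeding. Mmp8 was at 32.3 and 2001 CPM in PHZ, and in bleeding at 0 UMIs in cycling cells and 1536 CPM in the others. Both libraries thus had Retnlg and Mmp8 mRNA in the non-cycling cells and little of it in the cycling ones.

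By list, all 10 measured genes of the mature neutrophil list and all 9 of the secretory vesicle and surface receptor list were lower in cycling cells of both libraries, 7 and 6 of them past 2-fold. Secondary granule genes lay closer together, with 1 of 19 past 2-fold higher (Fcnb, a ficolin), 3 lower and median log2 ratios of -0.68 and -0.31, beside -0.15 and -0.02 over all 2268 genes (-0.28 and -0.11 with the rule genes out of the total). These 19 genes include Camp, Ngp and Ltf, which chose the cells, so the values of this list are description only. Ribosomal protein genes were higher in cycling cells, with 77 of 80 over 1 in both libraries and median log2 ratios of 1.73 and 0.57. With mixed barcodes set aside the libraries were close: ribosomal protein genes took 4.53% of UMIs in the 30 unmixed cycling PHZ cells, beside 4.73% in the 9 of bleeding.

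To follow the cells in finer steps, the non-cycling ones without mixed barcodes were ordered by Retnlg and divided into 3 groups of nearly equal size, 36, 36 and 35 cells in PHZ and 10 each in bleeding. Their Retnlg range was 0 to 900, 914 to 8372 and 10218 to 55172 CPM in PHZ and 0 to 468, 768 to 3487 and 4972 to 47303 CPM in bleeding. Retnlg was chosen with its behaviour known, and its own rise over these groups follows from the ordering. Precursors (25 and 11 unmixed), cycling cells and mature neutrophils (115 and 59 unmixed) were set on either side. The precursors included cells with under 20 UMIs over Camp, Ngp and Ltf, so their summed levels average over unlike cells. The groups held between 116669 and 1287006 UMIs without haemoglobin. The order describes these groups of cells and was not tested as a course in time.

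RNA content and ribosomal protein mRNA declined across these groups. Median UMIs per cell in PHZ were 50208 in precursors, 26312 in cycling cells, 14992, 13456 and 9757 in the Retnlg-low, middle and high groups and 4294 in mature neutrophils. Bleeding ran in the same order, from 41078 over 26448, 16625, 12894 and 11309 to 4025. Ribosomal protein genes took 19.1% of UMIs in PHZ precursors, 4.53% in cycling cells, then 2.97%, 2.25% and 1.96%, and 2.98% in mature neutrophils. Bleeding had 19.7%, 4.73%, 3.85%, 2.59%, 2.31% and 3.4%. The step from precursors to cycling immature cells was the largest in both libraries, and mature neutrophils had a higher share than the Retnlg-high cells in both.

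**Figure D3:**
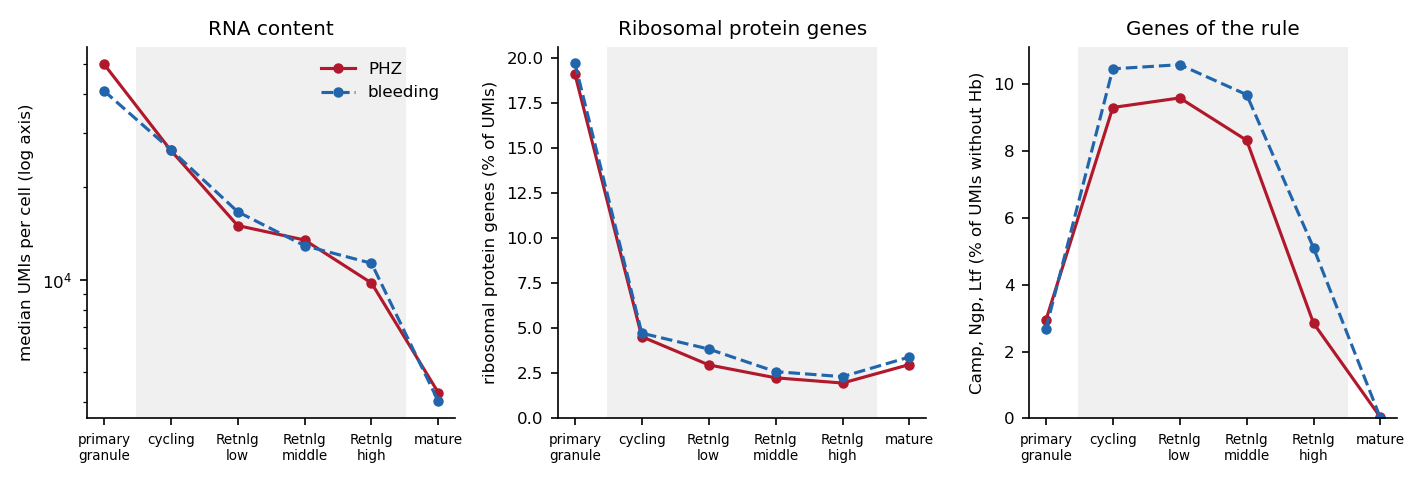
Median UMIs per cell (left, log axis), ribosomal protein genes as percent of UMIs (middle) and Camp, Ngp and Ltf as percent of UMIs without haemoglobin (right) over 6 groups of cells, with PHZ as solid red and bleeding as dashed blue lines; grey marks the immature neutrophils. Ribosomal protein genes fell from 19.1% and 19.7% in precursors to 4.53% and 4.73% in cycling immature neutrophils. The precursors include cells with under 20 UMIs over Camp, Ngp and Ltf.

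Secondary granule genes differed in where they peaked. Camp was at 19448 CPM in PHZ precursors, 47990 in cycling cells, 44909, 33162 and 9386 in the Retnlg-low, middle and high groups and 28.6 in mature neutrophils. Bleeding had 19467, 50239, 54087, 42855, 19517 and 13 CPM of Camp in the same order. In the precursors with 20 or more UMIs over Camp, Ngp and Ltf, mixed barcodes included, Camp stood at 27596.5 and 41877 CPM. Ltf came later: in PHZ it stood at 824 CPM in precursors, 7798 in cycling cells, 12184, 13693 and 4467 in the Retnlg groups and 3.81 in mature neutrophils. In bleeding Ltf peaked in the same middle group at 12261 CPM. Ngp varied less between cycling, low and middle cells (37302, 38863 and 36411 CPM in PHZ), and fell to 14610 CPM in Retnlg-high and 246 CPM in mature cells. All 3 rule genes were thus lower in the Retnlg-high group than in the middle one, in both libraries, and Lcn2 fell less, from 18134 to 11531 CPM in PHZ and from 17812 to 14383 CPM in bleeding. Mature cells were chosen with under 20 UMIs over Camp, Ngp and Ltf, so the low level of these genes there is no finding.

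The early end was marked by ficolin B, Chil3, Orm1 and Cebpe. Fcnb was at 1037 CPM in precursors of both libraries, at 668 and 977 in cycling cells, at 469 and 911 in Retnlg-low, at 32.6 and 57.9 in the middle and at 0 in Retnlg-high cells. Chil3, a chitinase-like protein, peaked in the cycling cells at 11300 CPM in PHZ and 10995 in bleeding and was at 878 and 2203 CPM in Retnlg-high cells. Cebpe peaked there too (852 and 895 CPM), against 441 and 300 in precursors and 106 and 240 in Retnlg-high cells. Precursors were not uniform. Those with 20 or more UMIs over Camp, Ngp and Ltf, mixed barcodes included, had 560 and 634 CPM of Cebpe and 1424 and 2215 CPM of Fcnb. The other precursors had 144 and 17.1 CPM of Cebpe and 39.5 and 42.7 CPM of Fcnb. Orm1, an acute phase glycoprotein, was at 378 and 327 CPM in cycling and 2.93 and 8.57 CPM in Retnlg-high cells. Zmpste24, a protease that processes prelamin, peaked in Retnlg-low cells at 576 and 779 CPM and was at 8.80 and 34.3 CPM in Retnlg-high cells. These genes were therefore low in Retnlg-high cells while Lcn2 was still at 11531 and 14383 CPM there.

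Genes of the surface and of gelatinase granules came next. Ly6g was at 175 and 258 CPM in cycling cells, at 896 and 1043 in Retnlg-low, 1346 and 1167 in the middle, 807 and 1140 in Retnlg-high and 169 and 65.1 in mature cells. Mmp9 (gelatinase B) rose from 131 and 90.4 CPM in cycling cells over 753 and 384 and 1972 and 1588 to 3308 and 2434 in Retnlg-high, and stood at 1759 and 1485 in mature cells. Mmp8, although of the secondary granule list, followed the same course with a maximum of 3856 and 3574 CPM. Padi4, the enzyme that citrullinates histones during release of extracellular traps, also peaked in Retnlg-high cells, at 693 and 403 CPM. Cybb, a subunit of the oxidase that makes superoxide, peaked earlier, in Retnlg-low cells (3231 and 2535 CPM).

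Several receptors and cytokines of the circulating cell were highest in mature neutrophils. Csf3r, Cxcr2 and Retnlg helped to select those cells, so the level of these genes there is no finding. Csf3r, the receptor of granulocyte colony-stimulating factor, was at 127 and 90.4 CPM in cycling, 637 and 394 in Retnlg-high and 4409 and 5997 in mature cells. Cxcr2, the receptor that draws neutrophils out of marrow, was at 71.1 and 30.1 CPM in cycling, 863 and 574 in Retnlg-high and 1932 and 1806 in mature cells. Cxcr4, the marrow retention receptor, was not lower in mature cells and stood at 92.4 and 43.0, 170 and 120, and 240 and 408 CPM in the same groups. Il1b was at 0 UMIs in cycling, low and middle cells of both libraries, at 32.3 and 60 CPM in Retnlg-high and at 3819 and 5862 CPM in mature cells. Of the 20 genes of the mature neutrophil list, 18 peaked in mature cells in both libraries, and of 11 measured immediate early genes 11 did, beside 21.0% of 7540 genes measured over these groups. The mature list holds genes that selected the mature cells.

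A few genes had their lowest level within the immature cells, with higher values in precursors and in mature neutrophils. Srgn encodes serglycin, the proteoglycan that packs granule contents. It was at 1506 CPM in PHZ precursors, 4.99 in cycling cells, 3.64, 46.9 and 666 in the Retnlg groups and 4521 in mature cells. Bleeding had 953, 8.61, 18.0, 24.8, 309 and 5828 CPM of Srgn, the same shape. Lmnb1 (lamin B1) was at 196 and 173 CPM in precursors, 205 and 220 in cycling cells, 10.9 and 18.0 in Retnlg-low and 546 and 656 in mature cells, and Itga4 (integrin alpha 4) at 97.1 and 131 in precursors, 23.7 and 38.7 in cycling and 628 and 968 in mature cells. Cebpb fell to 22.4 and 33.1 CPM in the middle group from 174 and 173 in precursors and stood at 699 and 695 in mature cells. These 4 genes, like the others followed over the groups, were chosen after their values were seen.

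**Figure D4:**
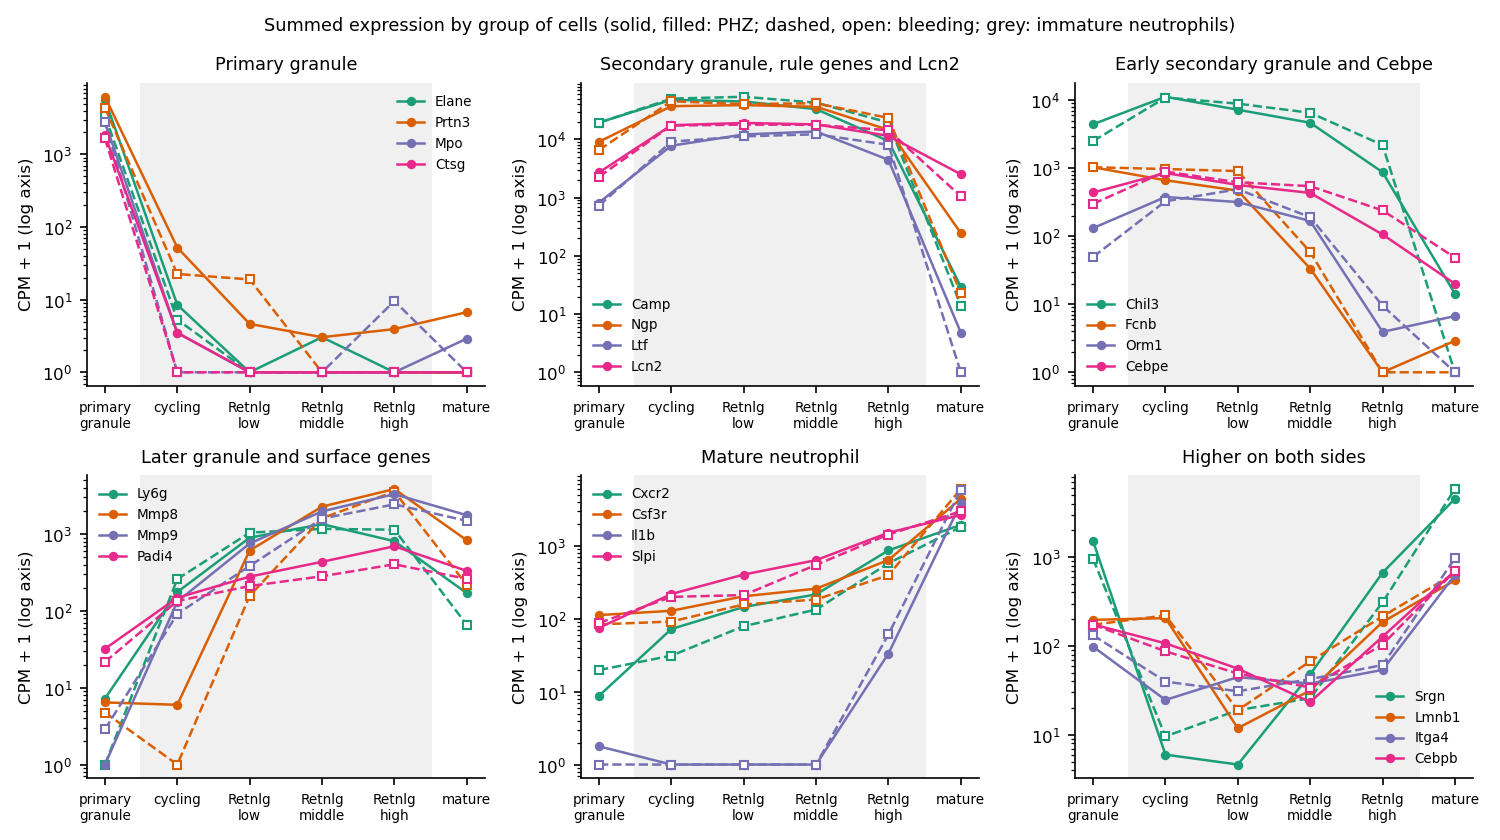
Summed CPM plus 1 (y axis, log scale) over 6 groups of cells from precursors to mature neutrophils, with the immature neutrophils on grey and each panel holding 4 genes; filled points on solid lines are PHZ and open points on dashed lines bleeding. Srgn was at 4.99 and 8.61 CPM in cycling cells between higher values on both sides. Camp was at 9386 and 19517 CPM in Retnlg-high cells and at 28.6 and 13 CPM in mature ones. The latter were chosen with under 20 UMIs over Camp, Ngp and Ltf, so this fall follows from the rule. The precursors also include cells with under 20 UMIs over these genes.

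Cell by cell, genes whose thinned level went with the sum of Camp, Ngp and Ltf over the immature neutrophils of each library were listed by Spearman's rho, as a description over 139 and 48 cells that share library and depth. The 8 with the highest rho in the weaker library were Chil3 (0.77 and 0.70), lysozyme Lyz2 (0.60 and 0.57), Lcn2 (0.51 and 0.58), Hmgn2 (0.42 and 0.44), H2afz (0.40 and 0.40), Pde4d (0.41 and 0.39), Fcnb (0.48 and 0.38) and Arhgdib (0.43 and 0.37). The most negative were Malat1 (-0.55 and -0.56), Mmp9 (-0.54 and -0.52) and Retnlg (-0.73 and -0.51). Camp, Ngp and Ltf also chose the cells, and no test was made of these values.

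Against mature neutrophils, 354 of 3165 measured genes (11.2%) were past 2-fold higher in the immature cells of both libraries and 697 (22.0%) past 2-fold lower. The rule genes fill over 34% of the immature cells' UMIs, which lowers every other gene's CPM: the median log2 ratio over all measured genes was -0.29 in PHZ and -0.32 in bleeding. With the rule genes left out of the total it was 0.10 and 0.14, and 576 genes were then past 2-fold higher and 451 lower; median-of-ratios scaling gave 555 and 463.

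The 12 genes that led in the immature cells had varied roles. Chil3, Fcnb, Cybb, Orm1, Serpinb1a, Cpa6 and Zmpste24 encode a chitinase-like protein, a ficolin, the oxidase subunit gp91phox, an acute phase glycoprotein, an inhibitor of granule proteases and metalloproteases, and Erg encodes an ETS transcription factor, Ica1 a secretory vesicle protein, and Top2a, Birc5 and Tpx2 cycle proteins. Cybb was at 2245 CPM in immature and 109 CPM in mature PHZ cells, a ratio of 20.7 (16.2 to 26.9), and at 2054 and 53.1 CPM in bleeding, a ratio of 38.7 (23.4 to 69.3). Serpinb1a was at 734 and 18.7 CPM in PHZ and 708 and 35.4 CPM in bleeding. Erg was at 150 and 157 CPM in immature cells and at 0 UMIs in mature cells of both libraries. Secondary granule genes outside the rule were past 2-fold higher in 10 of 16 and lower in 0, and G2 and M phase genes in 25 of 32.

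Lower in the immature cells were cytokine, receptor and early response genes, led by Il1b, Prr5l, Wfdc17, Sirpb1c, Pla2g7, AU019990, Il13ra1, Fgl2, Cd244a, Dusp1, Gm5150 and Ifitm1. Il1b, interleukin 1 beta, was at 5.0 CPM in immature and 3539 CPM in mature PHZ cells and at 9.10 and 5235 CPM in bleeding. Pla2g7, which hydrolyses platelet-activating factor, was at 12.5 and 1114 CPM in PHZ and 1.14 and 1245 CPM in bleeding. Dusp1, a phosphatase of MAP kinases, was at 7.91 and 500 CPM in PHZ and 7.96 and 959 CPM in bleeding. By list, immediate early genes were past 2-fold lower in 8 of 8, mature neutrophil genes in 14 of 15, type I interferon genes in 7 of 8 (5 of 8 with the rule genes out of the total) and genes of colony-stimulating factor signalling in 8 of 9 (6 of 9). B cell markers stood at 456 and 707 CPM in sum in the mature neutrophils and at 10.8 and 367 CPM in the immature ones, and their effect on these ratios was not tested.

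Against primary granule precursors, 400 of 4055 measured genes (9.86%) were past 2-fold higher in the immature cells of both libraries and 865 (21.3%) past 2-fold lower. The median log2 ratios were -0.31 and -0.28, and with the rule genes out of the total they were 0.09 and 0.15, with 682 genes higher and 517 lower; median-of-ratios scaling gave 597 and 607. With barcodes marked as doublets removed, only 21 of 30 PHZ and 4 of 12 bleeding precursors were left. The counts were then 365 higher and 543 lower, and their bleeding side rests on those 4 precursors. Over all precursors, the leading genes among those higher were Retnlg, Mmp9, Mmp8, Ly6g, Scrg1, AA467197, Ceacam10, Ifitm6, Fpr2, Stfa2l1, Slfn1 and Plbd1. Among them are genes of gelatinase granules, the surface and the late cell, and Mmp8 and Ceacam10 of the secondary granule list. Ifitm6, an interferon-induced transmembrane protein, was at 2897 CPM in immature cells and 167 CPM in precursors of PHZ, a ratio of 17.4 (15.3 to 19.8), and at 2763 and 86.8 CPM in bleeding, a ratio of 31.8 (24.2 to 42.8). Ly6g was at 657 and 5.31 CPM in PHZ, and at 743 CPM and 0 UMIs in bleeding.

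Genes that were lower led with Lgals1, F13a1, S100a4, Ccr2, Ms4a6c, Gria3, Fn1, Apba1, Cst7, Nme2, Gstm1 and Idh2, several of which are monocyte genes. Of the precursors, 19 of 30 in PHZ and 7 of 12 in bleeding also had 20 or more Camp, Ngp and Ltf UMIs, and 8 and 4 had 10 or more UMIs over Csf1r, Ccr2, F13a1 and Ms4a6c, 7 and 4 of which lay outside those double-positive cells. Of all precursors 2 and 2 had 10 or more UMIs of basophil and mast cell markers, and 1 and 0 of eosinophil markers, with 0 of these among the double-positive cells. In PHZ F13a1 was at 1028 CPM in the precursors with fewer secondary granule UMIs and 10.5 CPM in the double-positive ones, and S100a4 at 439 and 1.05 CPM. In the same 2 sets Gstm1, a glutathione transferase, was at 304 and 325 CPM and Cst7, cystatin F, at 133 and 121 CPM. Against the 19 double-positive PHZ cells alone 12 of 12 named genes stayed past 2-fold higher and 10 of 12 past 2-fold lower. Bleeding had too few such cells for the comparison.

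Genes for protein synthesis and secretion were among the lower ones. Ribosomal protein genes were past 2-fold lower in 78 of 81 (median log2 ratios -2.10 and -2.04), endoplasmic reticulum genes in 15 of 17, S phase genes in 19 of 20 and heat shock and folding genes in 8 of 9. With the rule genes out of the total these counts were 76, 13, 11 and 4. Calr, a chaperone of the endoplasmic reticulum, was at 1149 CPM in unmixed PHZ precursors and at 78.6, 147, 122 and 32.3 CPM in cycling, Retnlg-low, middle and high cells, with 1360 and 81.8, 102, 116 and 34.3 CPM in bleeding. In double-positive precursors, mixed barcodes included, Calr was at 1018 CPM in PHZ and 565 CPM in bleeding, beside 1260 and 1708 CPM in the other precursors. Against the 19 double-positive PHZ precursors the reticulum list was past 2-fold lower in 18 of 20 and the ribosomal list in 78 of 81. The S phase list was lower in 35 of 37, and the heat shock and folding list in only 5 of 10. Ribosomal protein genes took 16.6% and 14% of UMIs in double-positive precursors of PHZ and bleeding. Oxidative phosphorylation genes were lower past 2-fold in 13 of 27 and in 4 of 27 with the rule genes left out, and glycolysis genes in 2 of 14 and 0 of 14.

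Between treatments, the immature neutrophils' summed profiles lay close together once mixed barcodes were set aside. Over all 187 cells 200 of 5760 measured genes (3.47%) were past 2-fold higher in PHZ and 91 (1.58%) past 2-fold lower. Without mixed barcodes 103 of 4928 genes (2.09%) were higher and 15 (0.304%) lower, with a median log2 ratio of 0.07 over all genes. When each cell was scaled alike and averaged, all 187 cells gave 135 higher and 141 lower. Camp was at 35627 CPM in PHZ and 39819 in bleeding, Ngp at 31558 and 36429, Lcn2 at 16012 and 15636, S100a8 at 123516 and 110814 and S100a9 at 144101 and 145206 CPM.

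Many genes with the widest gap over all 187 cells are known from erythroid, B or T cells, and 5 of the 30 named kept an interval bound beyond 1.5-fold without mixed barcodes (Cstdc4, Car2, Rad51b, Ccl6 and H2-Ab1). Higher in PHZ were Cstdc4, Slc25a21, Car2, Pola1, Fabp5, Rad51b, Blvrb, Prdx2, Tfrc, Hspd1, Hspe1, Dut, Ncl, Nme1 and Ccl6, among them Car2 and Tfrc, carbonic anhydrase and the transferrin receptor of erythroid cells. Car2 had 432 UMIs in PHZ and 8 in bleeding over all cells, and 35 and 1 without mixed barcodes. Rad51b had 58 and 3 UMIs without mixed barcodes, and 56.9% of those in PHZ came from 3 cells. Ncl (nucleolin) was 3.47 times higher in PHZ over all cells (2.85 to 4.27) and at a ratio of 0.903 (0.659 to 1.25) without mixed barcodes. Lower in PHZ were B and T cell genes, Ebf1, Lef1, Cd74, Ms4a4b, H2-Eb1, Gm2682, Aff3, Skap1, Bach2, Maml2, H2-Ab1, H2-Aa, Cd79a, Swap70 and Man1a. Ebf1, a B cell transcription factor, had 2 UMIs in PHZ and 168 in bleeding over all cells, and 2 and 5 without mixed barcodes, and Cd74 had 19 and 343 over all cells and 19 and 16 without.

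Without mixed barcodes 11 genes were named as higher in PHZ and 1 as lower. Mmp25, a membrane-bound metalloprotease of gelatinase granules, was the most evenly spread: it had UMIs in 123 of 137 PHZ and 29 of 39 bleeding cells and was at 231 and 119 CPM, a ratio of 1.93 (1.52 to 2.50). Its ratio was 2.03 (1.15 to 3.85) in cycling cells, 2.43, 2.07 and 1.73 in Retnlg-low, middle and high cells and 2.78 (1.5 to 5.61) in mature neutrophils, above 1 in these 5 groups, and 0.690 (0.227 to 2.31) in precursors. Pira2, a paired immunoglobulin-like receptor, had UMIs in 109 and 25 cells and a ratio of 2.03 (1.52 to 2.75). Tirap, an adaptor of Toll-like receptors, was in 96 and 16 cells with a ratio of 2.44 (1.53 to 4.09), Klhl2 in 73 and 12 (2.61, 1.55 to 4.69), Zmym2 in 74 and 10 (2.99, 1.65 to 5.95) and Smchd1 in 59 and 10 (2.50, 1.53 to 4.32). For Zmym2 and Smchd1 the ratio over all 187 cells was lower, 1.74 and 1.13.

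Other named genes were found in fewer cells or had most of their UMIs in few. Ccl6, a chemokine, was at 118 and 31.4 CPM, a ratio of 3.75 (2.38 to 6.24), and the gap lay in Retnlg-high cells, with 737 and 137 CPM there and a ratio of 0.987 in mature neutrophils. The Retnlg-high groups were not matched between libraries, with a median Retnlg of 26325 CPM in PHZ and 13039 CPM in bleeding. The part of this in the Ccl6 gap was not tested. Ifitm1 followed with a ratio of 3.5 (1.84 to 7.49), 80% of its PHZ UMIs coming from 3 cells. Asprv1, an aspartic protease, had a ratio of 3.77 (2.23 to 6.87), with UMIs in 43 of 137 and 8 of 39 cells and 24.2% of its PHZ UMIs in 3 cells. Cstdc4, a cystatin A-like protease inhibitor, had 408 UMIs in 10 PHZ cells and 0 in 39 bleeding cells. The ratio was 39.7 with the group's 0 set to 3 counts, and its exact interval began at 32.1. Cells with 5 or more Cstdc4 UMIs were 6 of 137 (4.38%, 1.62 to 9.29) and 0 of 39 (0 to 9.03%), intervals that overlap. Bleeding was not without the gene, since mature neutrophils there had 208 Cstdc4 UMIs in 23 of 63 cells, and the cystatin A-like genes are near-identical copies whose reads may be split between them. Filip1l was lower in PHZ, with a ratio of 0.217 (0.179 to 0.264), but 189 of its 251 bleeding UMIs came from 1 cell, without which the ratio was 0.833 (0.622 to 1.13).

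Olfm4, olfactomedin 4 of a subset of neutrophils' secondary granules, was either present in quantity or absent. In PHZ 11 of 137 unmixed cells had it (8.03%, 4.08 to 13.9), each with 21 to 78 UMIs, and 0 cells had 1 to 4 UMIs. In bleeding 1 of 39 had it (2.56%, 0.0649 to 13.5), with 81 UMIs. Of the 11 PHZ cells 3 were cycling, and among precursors 1 of 30 had 78 UMIs while 29 had 0. Mature neutrophils had Olfm4 in 6 of 120 PHZ cells, with at most 18 UMIs, and in 1 of 63 bleeding cells with 2, and outside the neutrophil groups it was in 2 of 2959 and 1 of 6655 cells. The summed level was 1.92 times higher in PHZ (1.52 to 2.46), an interval that covers the counting of UMIs and not the number of positive cells.

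By list, medians without mixed barcodes ran from -0.19 to 0.47 over 28 lists. The largest distance was in the tertiary granule list, with a median log2 ratio of 0.47 over 8 measured genes, 0 of them past 2-fold either way, beside 0.07 over all genes. The cystatin A-like list, which also holds Cst3 (cystatin C), followed at 0.40 over 6 genes with 2 past 2-fold higher (Cstdc4 and Stfa3). The mature neutrophil list stood at 0.38 over 17 genes with 1 past 2-fold higher (Ccl6). Retnlg was 1.35 times higher in PHZ (1.29 to 1.41), Mmp9 1.36 times (1.24 to 1.49), Cxcr2 1.52 times (1.23 to 1.89) and Csf3r 1.41 times (1.15 to 1.74). Beside these values, 35 of 107 non-cycling PHZ cells and 7 of 30 bleeding cells had 10000 or more Retnlg CPM, 32.7% (24 to 42.5) and 23.3% (9.93 to 42.3), a ratio of 1.40 (0.614 to 3.74), and the part of this in the list medians was not tested.

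Lists of secondary granule genes (median 0.01, 16 genes, 0 past 2-fold), NADPH oxidase (-0.01, 6 genes), G2 and M phase (-0.07, 49 genes), endoplasmic reticulum (-0.10, 15 genes), oxidative phosphorylation (0.01, 28 genes), glycolysis (0.06, 14 genes), haem, iron and antioxidant (0.05, 20 genes) and heat shock (0.01, 8 genes) held 0 genes past 2-fold. The ribosomal list lay at -0.17 with 0 of 81 past 2-fold. Over all 187 cells the heat shock and S phase lists had stood at 0.82 and 0.68, with 4 of 10 and 11 of 29 genes past 2-fold higher, and without mixed barcodes at 0.01 and 0.30 with 0 of 8 and 2 of 17 (Casp8ap2 and Rrm1). Among the haem and iron genes, Fth1, ferritin heavy chain, had a ratio of 1.09 (0.971 to 1.22), Ftl1, ferritin light chain, 1.01 (0.920 to 1.10) and Blvrb, biliverdin reductase, 1.25 (0.637 to 2.67). In type I interferon genes 1 of 5 was past 2-fold, Ifi27l2a at 2.18 (1.38 to 3.62), with Ifitm3 at 1.10 (0.994 to 1.21).

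**Figure D5:**
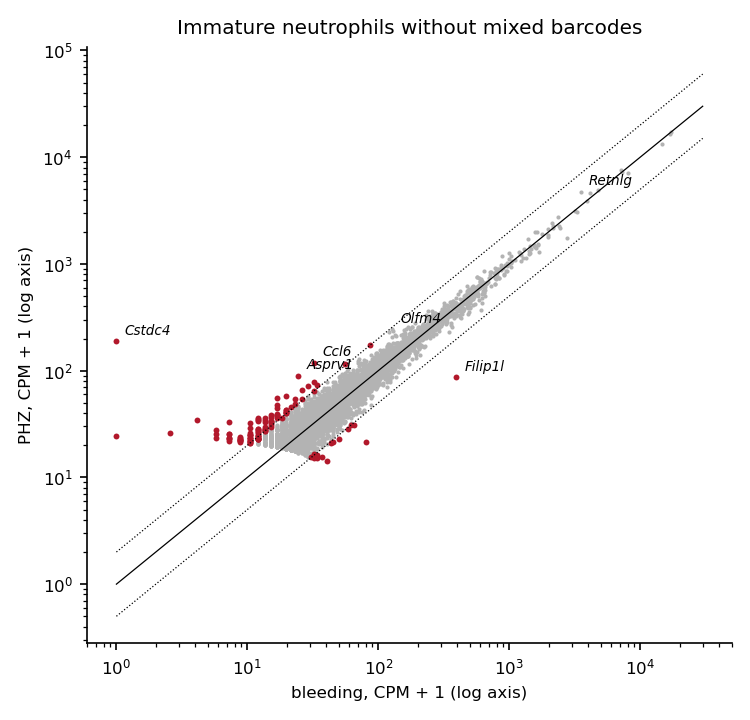
Each point is a gene outside the rule with 50 or more UMIs in the immature neutrophils without mixed barcodes, placed by its CPM plus 1 in bleeding (x axis, log scale) and in PHZ (y axis, log scale); the solid line marks equality, dotted lines 2-fold, and red points genes past it. Of 4928 genes 103 are past 2-fold higher and 15 lower in PHZ, and Cstdc4, at 0 UMIs in bleeding, stands at the left.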

How the data were processed

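The authors' deposited matrices hold counts, with each value the number of UMIs of a gene in a droplet, empty droplets included. Per the submitters' processing notes Cell Ranger 7.0.0 and build mm10 were used, while the file header gives version 4; which annotation release was used is not given in the sources used here. The matrices held 128130213 UMIs over 1608470 barcodes (PHZ) and 145260780 over 1698351 (bleeding). The cells and gene lists were chosen with earlier results of these data known. Each group's UMIs were added up and scaled to the total without haemoglobin genes (CPM). Ratios carry exact conditional 95% intervals and shares Clopper-Pearson ones (scipy 1.17.1); the ratio code was tested on simulated data. Genes needed 50 UMIs. No count model was run. Named genes had 50 or more UMIs and CPM in the higher group and an interval bound beyond 1.5-fold, ranked by that bound: 15 per direction between libraries, 12 in other comparisons, 8 by likeness, and the 4 largest of each list; cycling and ordered groups, Olfm4, and genes shown over them were added after the data were seen. Thinning used seed 0. Scrublet (scanpy 1.11.5, expected rate 0.06) marked the highest 0.8% per 1000 cells as doublets, which were kept. Some genes of the lists are not reported here by name.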

Additional observations from a re-analysis of the deposited data

How the results depend on the processing

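The ratio of 4.36 moved by less than its interval, and the counts of genes past 2-fold, both directions summed, stayed within 1.5 times, under the other UMI, haemoglobin and mitochondrial limits, doublet removal, scalings and background subtraction that were run, except where named here. With no haemoglobin limit the ratio among cells under it was 4.29 in place of 6.04. The count of genes past 2-fold between libraries was 291, and 116 with doublets removed and 118 without mixed barcodes (chosen after seeing the data, as was leaving out 1 cell for Filip1l). By direction, leaving the rule genes out of the total moved higher and lower counts from 354 and 697 to 576 and 451 against mature neutrophils and from 400 and 865 to 682 and 517 against precursors, doublet removal moved the latter to 365 and 543, and scaling each cell alike moved 200 and 91 between libraries to 135 and 141. With a minimum of 10 UMIs per gene the counts were 1511 between libraries, 2258 against mature neutrophils, 2758 against precursors and 1207 between cycling and other cells, beside 291, 1051, 1265 and 282; with 200 they were 29, 306, 389 and 46. Among single genes that were scored, the sign turned for Ncl and Hspe1. The log2 ratio of Ncl was -0.46 with doublets removed, -0.15 without mixed barcodes and -0.53 without the 3 highest cells. That of Hspe1 was -0.12 with each cell scaled alike and -1.14 without the 3 highest cells. Without mixed barcodes, genes below the minimum of UMIs per gene were not scored. Some named genes below it turned there too, on few UMIs and with intervals that span 1. The ratio of PHZ over bleeding was then 0.778 for Hspe1 (24 and 9 UMIs) and 1.46 for Gm2682 (5 and 1 UMIs). For Aff3 and Skap1 it was 1.17 (4 and 1 UMIs each). No paired analysis was possible because each treatment has 1 library.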
